A study of Mus musculus with 4 samples.

Results

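Cdkn1a, Cdkn1b and Cdkn1c are the 3 genes of the Cip/Kip family of cyclin-dependent kinase inhibitors, and they were taken by symbol from the 25804 distinct gene symbols of the count files (ENSMUSG00000023067, ENSMUSG00000003031 and ENSMUSG00000037664). They were picked with the high Cdkn1c level of the MPC library already known, so that level is given as a description. The proteins, p21, p27 and p57, bind cyclin and kinase complexes and hold them inactive at the entry into S phase, and p21 and p27 can also help cyclin D to assemble with its kinase. Cdkn1a is a direct target of p53, and p27 is set largely by protein turnover. Cdkn1c is imprinted and read from the maternal copy, in the region linked to Beckwith-Wiedemann syndrome. In skeletal muscle, p21 and p57 are known for their joint part in cell cycle exit as myoblasts differentiate, and p27 has been linked to quiescent satellite cells, the stem cells of muscle.

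Mouse muscle cells were profiled by droplet 3' single-cell RNA sequencing, with 1 library for each of 4 groups, all from Pax7-nGFP animals, whose nuclear GFP follows the Pax7 promoter that is active in satellite cells. The MPC culture had 2 passages in myoblast conditions followed by 5 in medium that held Forskolin (5 µM), Repsox (5 µM) and CHIR9901 (3 µM). Myoblasts were at passage 2 in medium without these 3 compounds. Both media held bFGF at 10 ng/ml, and both cultures came from a male mouse of 16 weeks and were not sorted. ASC, activated satellite cells, carried GFP and were sorted out of 17 tibialis anterior muscles of male and female mice aged 18 to 24 weeks, 3 days after cardiotoxin (10 µM), and fiSC, freshly isolated satellite cells, were GFP-positive cells sorted from the limb muscles of 3 male mice of 13 weeks, pooled. With 1 library per group no test was possible. The groups cannot be told apart from their libraries, animals and batches, and all intervals cover counting error only.

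After filtering, MPC held 9096 cells, myoblast 2365, ASC 6446 and fiSC 2192, with 135956672, 55139531, 179085373 and 20031950 UMIs (counted molecules) and medians of 13236, 22911, 19810.5 and 8769 UMIs per cell in that order. MPC and myoblast shared 164 deposited barcodes, of which 11 pairs were kept, and the other library pairs shared at most 27. Leaving out every shared barcode kept the call of all 72 ratios computed between states and libraries. Cells were split by their UMIs into Myog+ cells (at least 2 UMIs of Myog, the transcription factor of muscle differentiation), Pax7+ Myog- cells (at least 1 Pax7 UMI and under 2 Myog UMIs) and cells with neither, and by cycling status (at least 2 UMIs of Mki67 plus Top2a). In the ASC library 3392 cells drew over 0.5% of their UMIs from macrophage markers and were kept apart, although it was a GFP sort; these cells held GFP at 1.55 CPM, against 34.0 CPM in the Pax7+ Myog- cells of the same library. The cuts pass through a range, not between types: exactly 1 Myog UMI was found in 1324 MPC, 264 myoblast, 217 ASC and 5 fiSC cells. Pax7 stood at 961, 1353, 129 and 916 CPM in the Pax7+ Myog- cells of MPC, myoblast, ASC and fiSC, which were picked by a Pax7 UMI. The differentiation markers (12 genes, Myog among them) summed to 13753 and 33208 CPM in the Myog+ cells of MPC and myoblast. In those of ASC they summed only to 1260 CPM. Myog itself, by which these cells were picked, gave 920, 1011 and 211 CPM of the sums in MPC, myoblast and ASC.

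Levels are CPM, UMIs of a gene summed over the cells of a library or state and scaled to a total of 1000000. For log2 ratios 5 CPM were added to both sides. A gene was called past the size rule when that ratio was at least 2-fold and the higher side had at least 10 CPM. 3' counts do not scale with transcript length, so the 3 genes can be set side by side only roughly, since capture differs between transcripts.

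Cdkn1c set the MPC library apart from the other 3. Over all cells it stood at 2357 CPM in MPC (exact Poisson interval 2349 to 2365), 22.4 CPM in myoblast (21.2 to 23.7), 25.3 CPM in ASC (24.5 to 26.0) and 37.6 CPM in fiSC (35.0 to 40.4). MPC stood far above the rest, and the neighbours in the order below it, fiSC, ASC and myoblast, had intervals that did not touch although they lay close together. Cdkn1a had a flatter profile, at 353 CPM in MPC, 593 CPM in myoblast, 230 CPM in ASC and 330 CPM in fiSC. Cdkn1b was the lowest of the family in MPC and myoblast, with 54.2 CPM in MPC, 16.7 CPM in myoblast, 39.8 CPM in ASC and 67.8 CPM in fiSC. Myoblasts therefore had the highest Cdkn1a and the lowest Cdkn1b and Cdkn1c of the 4 libraries.

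**Figure D1:**
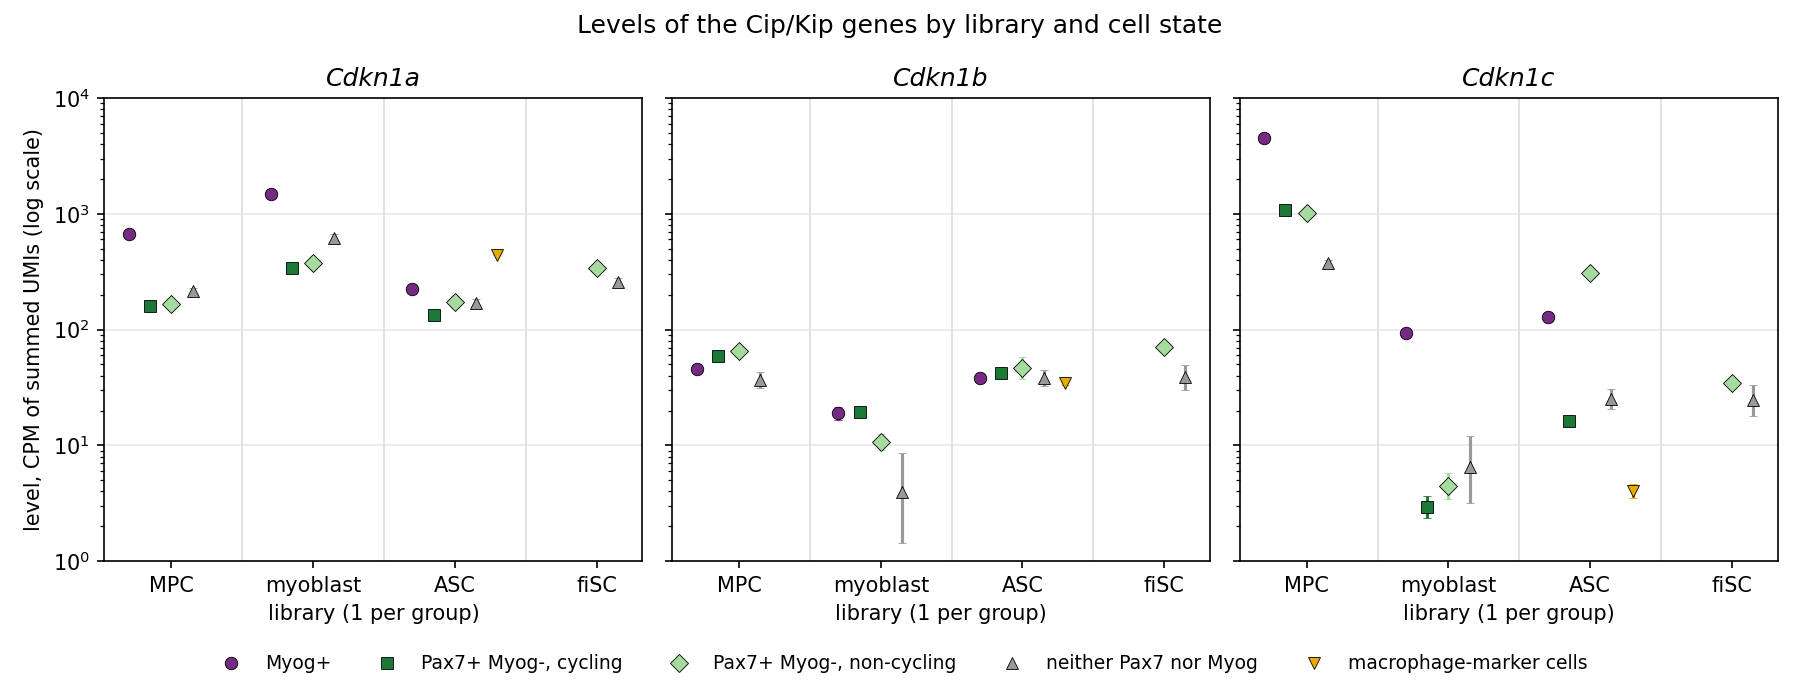
Levels of Cdkn1a, Cdkn1b and Cdkn1c (CPM of summed UMIs, log axis) in each library, split into Myog+ cells, cycling and non-cycling Pax7+ Myog- cells, cells with neither gene and, in ASC, macrophage-marker cells; bars are exact Poisson intervals and states of under 50 cells are not drawn. Cdkn1c spans from 2.96 CPM in cycling Pax7+ Myog- myoblasts to 4550 CPM in Myog+ MPC, while Cdkn1b stays between 3.94 and 70.0 CPM.

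Cdkn1c was detected in most MPC and in few cells elsewhere. In cells thinned to 2000 UMIs, which removes the difference in depth and leaves out 206, 77, 640 and 50 shallower cells of MPC, myoblast, ASC and fiSC, a Cdkn1c UMI was found in 70.6% of MPC (exact binomial interval 69.6 to 71.5%), 2.53% of myoblast, 3.05% of ASC and 4.53% of fiSC cells. At full depth the shares were 92.1, 10.4, 14.9 and 12.7% in that order. Macrophage-marker cells of ASC, which are not muscle cells, gave 0.558% thinned and 4.16% at full depth with a median of 14948.5 UMIs, and the ASC, fiSC and Myog+ myoblast shares lay above that level. The Pax7+ Myog- myoblasts did not, with 0.514% (0.235 to 0.973%) thinned. At full depth they gave 6.82%, with a median of 23251 UMIs. Their Cdkn1c is read here as background. That reading rests on a level from another library, since myoblast held no macrophage-marker cells, and free RNA in myoblast was not measured. Cdkn1a was found in 34.5% of MPC, 51.6% of myoblast, 38.6% of ASC and 35.6% of fiSC cells after thinning, and Cdkn1b in 10.5, 2.62, 7.49 and 11.9%.

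Where Cdkn1c was present outside MPC it was carried by a small share of the cells. At least 3 Cdkn1c UMIs per 2000 were found in 4032 of 8890 MPC cells (45.4%), which held 92.5% of the thinned Cdkn1c UMIs of that library. In myoblast 13 of 2288 cells reached that level and held 51.7% of its Cdkn1c UMIs, in ASC 34 of 5806 cells held 46.3%, and in fiSC 8 of 2142 cells held 29.4%. The 13 myoblast cells had Myog at 2615 CPM, the myocyte gene Actc1 at 8385 CPM and Pax7 at 0 CPM. The 8 fiSC cells instead had Pax7 at 1000 CPM, Myod1 (the myoblast determination factor) at 563 CPM and Actc1 at 0 CPM. Numbers this small give only a rough level, and these companion genes were chosen after their values were seen.

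Within the Pax7+ Myog- cells, the progenitor state that all 4 libraries hold in number, the family differed gene by gene between MPC and myoblast. Cdkn1c stood at 1062 CPM in MPC and 3.47 CPM in myoblast, at least 260-fold higher by the lower counting bound, since the myoblast level is read as background. Its log2 ratio was 6.98. Cdkn1b stood at 60.4 CPM in MPC and 16.5 CPM in myoblast, 3.66-fold higher (3.38 to 3.97). Cdkn1a went the other way, with 160 CPM in MPC and 350 CPM in myoblast, a ratio of 0.458 (0.447 to 0.469). All 3 members passed the size rule, where 15.2% of the 9417 genes measured did so. The rule that picked these genes used this contrast for Cdkn1c, so its place among all genes is not a result.

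In Pax7+ Myog- cells the differences between MPC and myoblast were there in either cycling state. Among cycling cells Cdkn1c had 1075 CPM in MPC and 2.96 CPM in myoblast, and among non-cycling cells 1015 CPM in MPC and 4.48 CPM in myoblast. Cdkn1b had 59.0 CPM in cycling MPC and 19.4 CPM in cycling myoblasts, and the gap was wider among non-cycling cells, with 65.8 CPM in MPC and 10.7 CPM in myoblast (6.12-fold, 5.16 to 7.30). In Myog+ cells Cdkn1a had 665 CPM in MPC and 1474 CPM in myoblast (0.451, 0.443 to 0.460), close to its ratio in progenitors. However, 1391 of 2869 Myog+ cells were cycling in MPC and 111 of 453 in myoblast. Among cycling Myog+ cells Cdkn1a had 377 CPM in MPC and 632 CPM in myoblast. Among non-cycling ones it had 1027 CPM in MPC and 1760 CPM in myoblast, and both gaps were under 2-fold. Over all Myog+ cells Cdkn1c had 4550 CPM in MPC and 93.5 CPM in myoblast (48.6-fold, 45.8 to 51.7). The Cdkn1b ratio in Myog+ cells was 2.42 (2.11 to 2.79), and with TMM factors its log2 ratio was 0.95, under the size rule, against 1.09.

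Against freshly isolated cells, MPC progenitors were closest in Cdkn1b. Cdkn1b had 60.4 CPM in MPC and 70.7 CPM in fiSC, a ratio of 0.854 (0.803 to 0.909). Cdkn1c had 1062 CPM in MPC and 35.4 CPM in fiSC (30.0-fold, 27.8 to 32.5), and Cdkn1a had 160 CPM in MPC and 337 CPM in fiSC (0.476, 0.461 to 0.490). In this comparison 44.4% of 9628 genes passed the size rule, so 2 of 3 members is no unusual count; the Cdkn1a log2 ratio of -1.05 was -0.92, under the rule, with states taken from thinned cells. Comparisons that set MPC against myoblast and MPC against fiSC share the MPC library.

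Activation after injury went with lower Cdkn1a in the Pax7+ Myog- cells and smaller differences of the others. Cdkn1a had 134 CPM in ASC and 337 CPM in fiSC, a ratio of 0.397 (0.386 to 0.409), and it was the only member past the size rule, where 47.1% of 8998 genes passed. Of these cells 2131 of 2286 were cycling in ASC and 25 of 1924 in fiSC, and among non-cycling cells alone Cdkn1a had 173 CPM in ASC and 341 CPM in fiSC (0.509, 0.453 to 0.570, log2 ratio -0.95), under the size rule. Cdkn1b had 42.4 CPM in ASC and 70.7 CPM in fiSC (0.599, 0.563 to 0.638). Cdkn1c had 21.1 CPM in ASC and 35.4 CPM in fiSC (0.595, 0.545 to 0.651), but this direction turned round when each cell weighed the same (38.8 CPM in ASC, 32.6 CPM in fiSC) and with states from thinned cells (39.9 and 34.0 CPM in that order). Over all cells of the library the Cdkn1a ratio of ASC to fiSC was only 0.698 (0.680 to 0.717). The macrophage-marker cells, with Cdkn1a at 444 CPM, held 54.9% of the ASC Cdkn1a UMIs and 28.5% of all ASC UMIs. They held 4.05 CPM of Cdkn1c and 4.58% of its ASC UMIs.

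Placed against ASC, cultured myoblasts had more Cdkn1a and less of the other members in the same state. Cdkn1a had 350 CPM in myoblast and 134 CPM in ASC (2.61-fold, 2.55 to 2.67), Cdkn1b had 16.5 CPM in myoblast and 42.4 CPM in ASC (0.389, 0.359 to 0.422), and Cdkn1c had 3.47 CPM in myoblast and 21.1 CPM in ASC (a ratio of at most 0.195, since the myoblast level is read as background). All 3 passed the size rule, where 18.5% of 9007 genes did. For Cdkn1b the call was lost among cycling cells alone, with 19.4 CPM in myoblast and 42.3 CPM in ASC (0.458, 0.419 to 0.501, log2 ratio -0.96).

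Cells that had turned on Myog carried more Cdkn1a and Cdkn1c than Pax7+ Myog- cells of the same culture, and Cdkn1b was not past the size rule in any library. In MPC, Cdkn1c had 4550 CPM in Myog+ cells and 1062 CPM in Pax7+ Myog- cells (4.28-fold, 4.25 to 4.32), and Cdkn1a had 665 CPM in Myog+ cells and 160 CPM in Pax7+ Myog- cells (4.15-fold, 4.07 to 4.24). In myoblast, Cdkn1a showed nearly the same step, with 1474 CPM in Myog+ cells and 350 CPM in Pax7+ Myog- cells (4.21-fold, 4.12 to 4.31). There Cdkn1c had 93.5 CPM in Myog+ cells and 3.47 CPM in Pax7+ Myog- cells (at least 22.7-fold higher by the lower counting bound, over a level read as background). In ASC, Cdkn1c had 129 CPM in Myog+ cells and 21.1 CPM in Pax7+ Myog- cells (6.13-fold, 5.77 to 6.52), and Cdkn1a had 222 CPM in Myog+ cells and 134 CPM in Pax7+ Myog- cells (1.66-fold, 1.60 to 1.72). The ratios of Cdkn1b were 0.759, 1.15 and 0.906 in MPC, myoblast and ASC. Of the genes measured, 10.8% passed the size rule in MPC, 14.7% in myoblast and 0.45% in ASC, where 2, 2 and 1 of the members did. Cells were split by Myog and not by these genes, but MPC's Cdkn1c level had drawn the choice of the family.

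A stricter cell filter moved Cdkn1a in MPC. With cells of at least 2000 UMIs, 1000 genes and at most 5% mitochondrial UMIs, Cdkn1a had 400 CPM in Myog+ cells and 160 CPM in Pax7+ Myog- cells, a log2 ratio of 1.30 against 2.02. Over all cells the same filter left Cdkn1a at 225 CPM in MPC and 608 CPM in myoblast, a log2 ratio of -1.41 in place of -0.74.

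Graded by the number of Myog UMIs in cells thinned to 2000 UMIs, Cdkn1c and Cdkn1a climbed with Myog. In MPC Cdkn1c had 1330 CPM at 0 Myog UMIs, 3547 CPM at 1, 4873 CPM at 2, 6028 CPM at 3 to 4 and 6379 CPM at 5 or more, and Cdkn1a had 198, 537, 761, 808 and 1097 CPM in the same bins. In myoblast Cdkn1a had 402, 1244, 1655, 1874 and 1918 CPM, and Cdkn1c had 4.64, 64.4, 54.1, 116 and 288 CPM. The last myoblast bin for Cdkn1c, 68 cells, thus stayed under the MPC cells with no Myog UMI. In ASC Cdkn1c had 27.2 CPM at 0 Myog UMIs and 106 CPM at 1 (72 cells), and the 18, 10 and 3 cells of the higher bins gave 491, 436 and 875 CPM. The 6 fiSC cells with at least 2 Myog UMIs had Cdkn1c at 1029 CPM (797 to 1307) from 67 UMIs, 8.89% of that library's Cdkn1c UMIs. Cdkn1b had 58.3 and 41.3 CPM in the lowest and highest MPC bin and 16.3 and 18.2 CPM in those of myoblast.

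**Figure D2:**
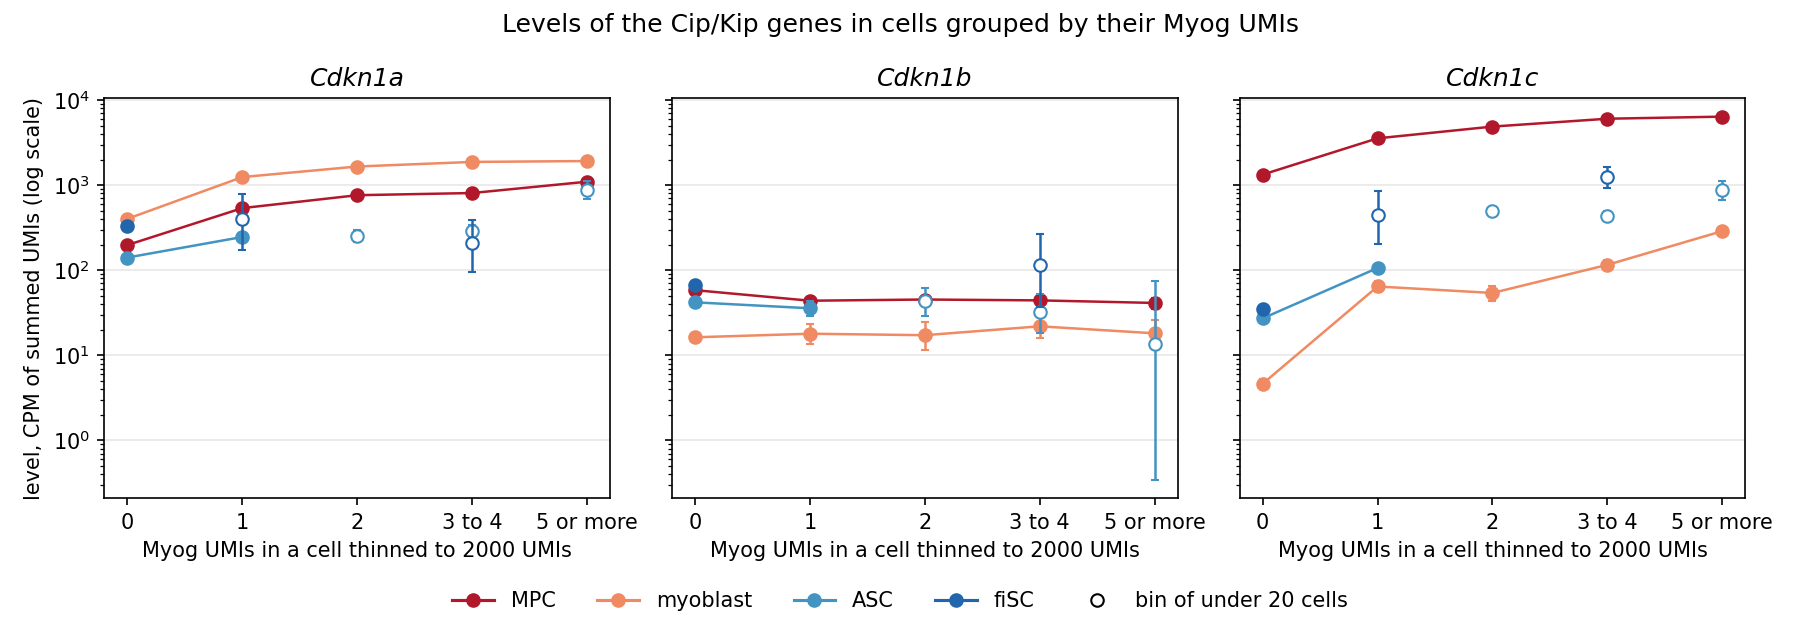
Levels of the 3 genes (CPM, log axis) in cells grouped by Myog UMIs per 2000, with exact Poisson intervals; lines join bins of at least 20 cells, open points are thinner bins, and bins with no UMI of the gene are not drawn. Cdkn1c and Cdkn1a climb with Myog in MPC and myoblast, from 1330 to 6379 CPM for Cdkn1c in MPC, while Cdkn1b runs flat in both.

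The Myog+ state also held most of the Cdkn1a and Cdkn1c transcripts in the cultures, but not most of those of Cdkn1b. In MPC it held 72.9% of the Cdkn1c UMIs and 71.2% of the Cdkn1a UMIs with 37.8% of all UMIs. In myoblast it held 87.4% of the Cdkn1c and 52.1% of the Cdkn1a UMIs with 20.9% of all UMIs. It held 32.0% of the Cdkn1b UMIs in MPC and 23.8% in myoblast, where cycling Pax7+ Myog- cells held 50.5% in MPC and 59.1% in myoblast. In ASC it held 42.3% of the Cdkn1c but 7.97% of the Cdkn1a UMIs with 8.26% of all UMIs. After thinning, a Cdkn1c UMI was found in 92.7% of Myog+ MPC (98.8% unthinned, median depth 15363 UMIs), 10.7% of Myog+ myoblasts (26.3%, 23750 UMIs) and 15.0% of Myog+ ASC (48.6%, 48852.5 UMIs). The median thinned Myog+ MPC held 9 Cdkn1c UMIs and the highest 39.

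Loss of Pax7 within the Myog+ cells went with still higher Cdkn1a in the cultures. In MPC Cdkn1a had 1114 CPM in Pax7- Myog+ cells and 493 CPM in Pax7+ Myog+ cells, and Cdkn1c had 5562 CPM in Pax7- Myog+ cells and 4160 CPM in Pax7+ Myog+ cells. In myoblast Cdkn1a had 2234 CPM in Pax7- Myog+ cells and 1187 CPM in Pax7+ Myog+ cells, and Cdkn1c had 131 CPM in the first and 79.2 CPM in the second. The differentiation markers summed to 25244 CPM in Pax7- Myog+ MPC and 9326 CPM in Pax7+ Myog+ MPC. Top2a was lower in the Pax7- Myog+ cells, at 189 CPM against 820 CPM in Pax7+ Myog+ MPC. In myoblast it had 21.5 CPM in Pax7- Myog+ cells and 283 CPM in Pax7+ Myog+ cells. The part of cycling status in these gaps was not tested.

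In the Pax7+ Myog- cells of MPC no member passed the size rule, where 3.06% of 9073 genes did. Cdkn1c had 1075 CPM in cycling cells and 1015 CPM in non-cycling cells (1.06, 1.04 to 1.08), Cdkn1a had 159 CPM in cycling cells and 165 CPM in non-cycling cells (0.960, 0.921 to 1.00), and Cdkn1b had 59.0 CPM in cycling cells and 65.8 CPM in non-cycling cells (0.896, 0.838 to 0.959). After thinning, 63.2% of the cycling cells and 57.9% of the non-cycling cells held a Cdkn1c UMI (93.3 and 84.9% unthinned, with median depths of 14275 and 9466 UMIs). By bins of 0, 1, 2 to 3 and 4 or more Mki67 plus Top2a UMIs per 2000, Cdkn1c had 1011, 1081, 1058 and 1102 CPM. MPC progenitors with the highest counts of these proliferation genes thus carried Cdkn1c at the level of those with none.

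In Myog+ MPC the cycling cells had less Cdkn1a. Cdkn1a had 377 CPM in cycling and 1027 CPM in non-cycling Myog+ MPC (0.367, 0.359 to 0.375), and 632 CPM in cycling and 1760 CPM in non-cycling Myog+ myoblasts (0.359, 0.342 to 0.377). Cdkn1c differed less, with 4164 CPM in cycling and 5033 CPM in non-cycling Myog+ MPC (0.827, 0.821 to 0.834). In Myog+ myoblasts it had 67.8 CPM in cycling and 102 CPM in non-cycling cells (0.663, 0.565 to 0.774). Myog itself was lower in the cycling cells, at 685 CPM against 1214 CPM in non-cycling Myog+ MPC.

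In Pax7+ Myog- myoblasts, where 4.2% of 8926 genes passed the size rule and none of the 2 measured members did, Cdkn1b was the member with the widest gap. It had 19.4 CPM in cycling cells and 10.7 CPM in non-cycling cells (1.80-fold, 1.50 to 2.17), and by bins of 0, 1, 2 to 3 and 4 or more Mki67 plus Top2a UMIs per 2000 it had 11.9, 17.7, 18.8 and 28.3 CPM. In cells of 5000 to 20000 UMIs, a range chosen after the data were seen, it had 18.0 CPM in 230 cycling cells (13.9 to 22.9) and 12.4 CPM in 296 non-cycling cells (9.22 to 16.4), and those intervals overlap. Cdkn1a had 338 CPM in cycling cells and 373 CPM in non-cycling cells (0.907, 0.877 to 0.939).

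Of the 3 libraries compared by cycling status, ASC was the only one in which a member passed the size rule in Pax7+ Myog- cells, and the size of that gap changed with depth. Cdkn1c had 16.2 CPM in 2131 cycling cells and 308 CPM in 155 non-cycling cells, a ratio of 0.0525 (0.0477 to 0.0579), where 12.7% of 8809 genes passed the size rule. The non-cycling cells were shallow, with a median of 8466 UMIs against 49767 UMIs in the cycling cells. In ASC cells of 5000 to 20000 UMIs Cdkn1c had 93.7 CPM in 138 cycling cells (80.5 to 109) and 368 CPM in 79 non-cycling cells (330 to 410), a log2 ratio of -1.92 in place of -3.89. With states taken from thinned cells Cdkn1c had 24.6 CPM in cycling and 68.8 CPM in non-cycling cells, and the log2 ratio was -1.32. The direction was the same in all of these, and cycling ASC in that range of depth held more Cdkn1c than cycling ASC of every depth.

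Those non-cycling ASC also differed in other genes. Pax7 had 125 CPM in cycling and 398 CPM in non-cycling cells, and at matched depth 353 CPM in cycling and 497 CPM in non-cycling cells. The satellite cell gene Chodl had 1.37 CPM in cycling and 53.04 CPM in non-cycling cells. The Notch effector Heyl had 2.72 CPM in cycling and 33.4 CPM in non-cycling cells, and both genes were named after their values were seen. At matched depth both gaps were much narrower. Chodl had 23.03 CPM in cycling and 85.7 CPM in non-cycling cells there. Heyl had 25.6 CPM in cycling and 43.9 CPM in non-cycling cells at that depth, with counting intervals that overlapped. Of 14 macrophage markers, 2 reached 20 CPM in cycling cells and 7 in non-cycling cells, with sums of 168 and 434 CPM in that order and none at 0. Of 8 fibroblast markers 1 reached 20 CPM in cycling cells and 3 in non-cycling cells, with sums of 50.002 and 364 CPM and 1 at 0 in non-cycling cells. Their part in the Cdkn1c gap was not tested. Against the non-cycling fiSC, at 34.6 CPM, the non-cycling ASC had 8.91-fold more Cdkn1c (7.93 to 10.0), and a log2 ratio of 2.98 that became 0.94, under the size rule, with states from thinned cells.

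**Figure D3:**
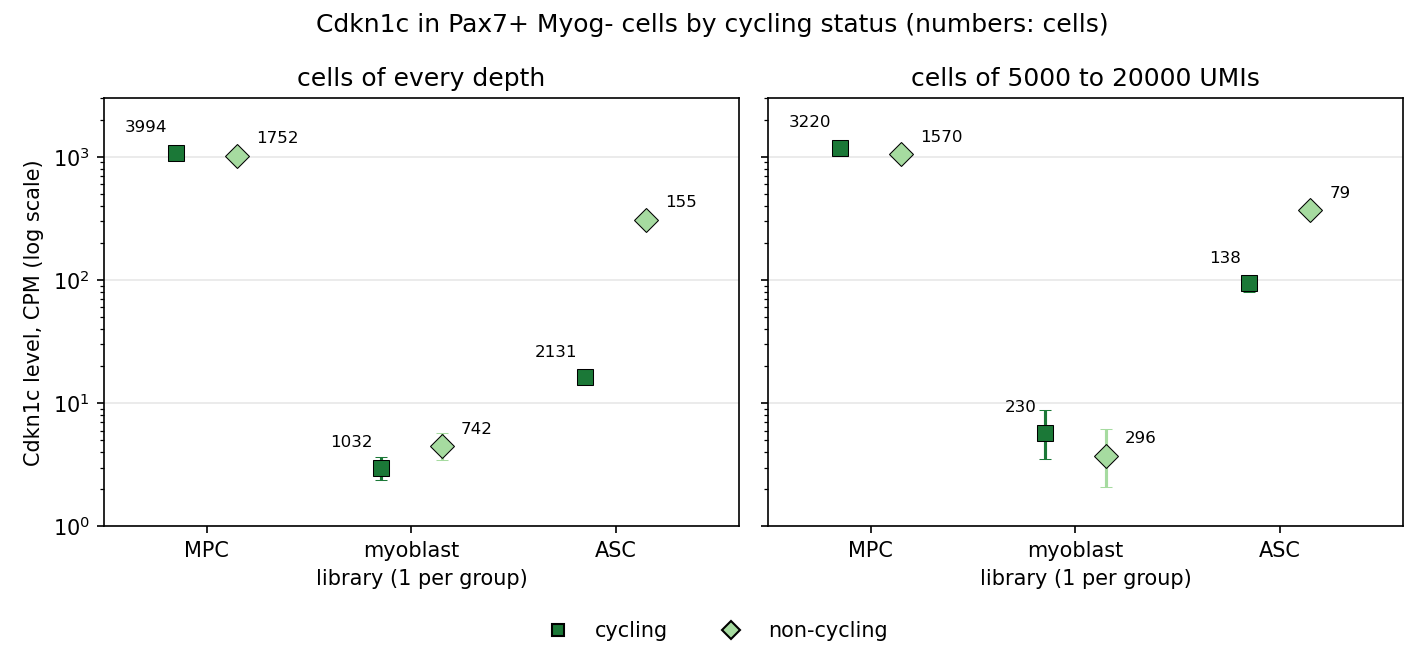
Cdkn1c in cycling and non-cycling Pax7+ Myog- cells (CPM, log axis, exact Poisson intervals) at every depth and in cells of 5000 to 20000 UMIs; numbers beside the points are cells. MPC sits at 1015 to 1185 CPM in both states, and the ASC gap is 16.2 against 308 CPM at every depth and 93.7 against 368 CPM at matched depth.

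Cell by cell, Cdkn1a and Cdkn1c did not go together in MPC progenitors. After thinning, a Cdkn1a UMI was found in 21.2% of 3513 Pax7+ Myog- MPC with a Cdkn1c UMI and in 29.1% of 2189 without one. The same was seen in cycling cells (21.6% of those with and 28.8% of those without Cdkn1c) and in non-cycling cells (20.4% with and 29.9% without). Progenitors with at least 3 Cdkn1c UMIs had Cdkn1a at 121 CPM, those with 1 or 2 had 147 CPM and those with none 198 CPM, at median depths of 12513.5, 12413 and 12655 UMIs. In Myog+ MPC the shares were 55.2% of those with and 56.5% of the 207 without Cdkn1c, and in Myog+ myoblasts 91.7% of the 48 with and 77.7% of the 399 without. Cdkn1b was found in 11.0% of Pax7+ Myog- MPC with Cdkn1c and 12.5% of those without.

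The Cdkn1c count per UMI of Actc1, an abundant myocyte transcript, was 1.09 in non-cycling and 2.40 in cycling Myog+ MPC, 7.25 in cycling and 6.06 in non-cycling Pax7+ Myog- MPC and 0.700 in cells with neither gene. Per UMI of Tnnt1, another myocyte transcript, it was 4.83 in non-cycling and 10.6 in cycling Myog+ MPC, 11.1 in cycling and 9.56 in non-cycling Pax7+ Myog- MPC and 1.06 in cells with neither gene. The Tnnt1 ratios thus lay close together in 3 of the 5 states and the Actc1 ratios did not, and the part of free RNA was not tested. The cells with neither gene held Cdkn1c at 378 CPM, with fibroblast markers at a sum of 3436 CPM and differentiation markers at 7294 CPM.

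Cdkn1a is the member whose promoter could be printed with a motif that bears on the p53 genes measured here. RefSeq promoter windows of GRCm38.p6, 250 bases before to 50 bases after a gene's start, were at hand for 2 starts of Cdkn1a and 1 of Cdkn1b. The 250 bases before the upstream Cdkn1a start, chr17:29090729-29090978 on the plus strand, are shown with the half-sites of a p53 consensus match (10 bases each, 12 bases apart, first base 73 bases before the start) in capitals.
Cdkn1a upstream start: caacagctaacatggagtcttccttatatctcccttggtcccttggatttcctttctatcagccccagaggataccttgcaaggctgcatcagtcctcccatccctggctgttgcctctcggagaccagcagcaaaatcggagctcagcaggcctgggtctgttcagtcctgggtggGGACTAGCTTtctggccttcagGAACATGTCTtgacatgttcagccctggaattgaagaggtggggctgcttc
A match to the p53 consensus, both strands searched with a spacer of at most 13 bases, was present in 24 of 32851 promoter windows (0.0731%). The window of the other Cdkn1a start and that of Cdkn1b held none. CANNTG, the E-box bound by factors such as Myog and Myod1, occurred 1 time in the upstream Cdkn1a window, after the start and so outside the printed bases, 2 times in the other Cdkn1a window and not in that of Cdkn1b, and in 72.3% of all windows. The Foxo-type motif TGTTTAC or its reverse complement GTAAACA was in none of the 3 windows and in 3.65% of all. A match describes letters and shows no binding. The 10 bases right after the second marked half-site miss the half-site pattern only at their first base. The strict pattern left them out, so the marked pair and its spacing need not be those that p53 binds.

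Most genes of the p53 arm that passed the size rule were, like Cdkn1a, lower in MPC than in myoblast. In Pax7+ Myog- cells 1 of its 14 genes was higher and 8 were lower in MPC, where 15.2% of all genes passed. The median log2 ratio of the arm was -1.19 beside 0.06 over all genes measured. Ccng1, a p53 target that encodes cyclin G1, had 38.4 CPM in MPC and 198.5 CPM in myoblast, the apoptosis effector Bax had 104 CPM in MPC and 383 CPM in myoblast, and Trp53inp1 had 8.91 CPM in MPC and 31.7 CPM in myoblast. Sesn1, a stress-induced target, had 37.1 CPM in MPC and 14.7 CPM in myoblast. Between ASC and fiSC 4 of 14 were higher and 4 lower, with a median of -0.29 beside 0.03, where 47.1% of all genes passed: Bax had 207 CPM in ASC and 31.6 CPM in fiSC, while Btg2, an antiproliferative gene also induced by stress, had 14.1 CPM in ASC and 811 CPM in fiSC. Myoblast against ASC had 7 higher and 1 lower, where 18.5% of all genes passed. Between Myog+ and Pax7+ Myog- MPC none of the 12 measured genes of the arm passed the rule in either direction, where 10.8% of all genes did. Cdkn1a was 4.15-fold higher in Myog+ MPC, and the part of p53 was not tested.

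Among the cyclins and kinases that the inhibitors bind, Ccnd1, Ccnd2 and Cdk6 differed with culture past the size rule in Pax7+ Myog- cells. In Pax7+ Myog- cells 15.2% of all genes passed the size rule between MPC and myoblast. Among the D-type cyclins and their kinases 3 of 5 were lower in MPC and none higher, with a median of -1.70. Ccnd2 had 104 CPM in MPC and 863 CPM in myoblast. Ccnd1 had 177 CPM in MPC and 679 CPM in myoblast, and Cdk6 had 83.6 CPM in MPC and 283 CPM in myoblast. None of the 7 cyclins and kinases of the E, A and B type passed the rule over all Pax7+ Myog- cells, with a median of 0.66. These counts hold for that state alone, and some genes of the list passed the rule in non-cycling and in Myog+ cells. The 4 Ink4 genes encode inhibitors that bind Cdk4 and Cdk6. Cdkn2a also encodes Arf, which does not bind them, and counts per gene cannot tell these products apart. Again in Pax7+ Myog- cells, Cdkn2a had 34.2 CPM in MPC and 255 CPM in myoblast and Cdkn2b had 2.38 CPM in MPC and 37.9 CPM in myoblast. Cdkn2c had 41.1 CPM in MPC and 15.0 CPM in myoblast and Cdkn2d had 27.9 CPM in MPC and 10.5 CPM in myoblast. Of the 6 pocket proteins and E2F factors, E2f2 was higher, with 47.8 CPM in MPC and 16.9 CPM in myoblast. Rb1, the retinoblastoma protein that the inhibitors keep active, had 202 CPM in Myog+ and 33.8 CPM in Pax7+ Myog- MPC, and 168 CPM in Myog+ and 50.9 CPM in Pax7+ Myog- myoblasts. ASC against fiSC gave 6 of 7 E, A and B type genes higher, where 47.1% of all genes passed. Cdk1, for example, had 202 CPM in ASC and 0.990 CPM in fiSC. Of these Pax7+ Myog- cells 2131 of 2286 were cycling in ASC and 25 of 1924 in fiSC.

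None of the 8 genes of Cip/Kip protein turnover passed the rule between MPC and myoblast over all Pax7+ Myog- cells (median 0.14), where 15.2% of all genes did. Some turnover genes passed it in other states. In non-cycling Pax7+ Myog- cells Pcna, on which p21 is degraded, had 127 CPM in MPC and 36.6 CPM in myoblast, and Dtl, the receptor of the ligase that degrades p21 there, had 66.5 CPM in MPC and 23.1 CPM in myoblast. In Myog+ cells Dtl had 46.5 CPM in MPC and 16.1 CPM in myoblast, and Skp2 had 47.7 CPM in MPC and 17.2 CPM in myoblast. Of these Myog+ cells 1391 of 2869 were cycling in MPC and 111 of 453 in myoblast, and the part of cycling status was not tested. None of the 5 of the Foxo and Akt arm, through which Foxo factors raise Cdkn1b, passed it over all Pax7+ Myog- cells (median 0.33). Between ASC and fiSC, where 47.1% of all genes passed, 4 of 7 turnover genes were higher, among them Skp2, the receptor that marks p27 for degradation, with 35.1 CPM in ASC and 7.42 CPM in fiSC. In the Foxo arm Foxo1 had 14.6 CPM in ASC and 81.7 CPM in fiSC, and Akt1 had 108 CPM in ASC and 32.1 CPM in fiSC. Of the Notch arm, which is known to hold satellite cells quiescent, 4 of 8 genes were higher in Pax7+ Myog- cells of MPC than of myoblast and none lower, where 15.2% of all genes passed: Heyl had 90.8 CPM in MPC and 3.28 CPM in myoblast, Hey1 had 45.1 CPM in MPC and 1.43 CPM in myoblast, and Notch3 had 233 CPM in MPC and 51.4 CPM in myoblast. Notch3 is also 1 of 7 mural cell markers, which summed to 372 CPM in MPC (4 at 20 CPM or more) and 85.6 CPM in myoblast (2 at 20 CPM or more), with none at 0. Their part was not tested.

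The neighbours of Cdkn1c in its imprinted region did not share its level. Of the 14 in the files 7 were measured in Pax7+ Myog- cells of MPC and myoblast. Of these 1 was higher and 1 lower, with a median of -0.13, where 15.2% of all genes passed the size rule. Kcnq1ot1 and H19, also in the region, were not among the features and could not be read. Kcnq1, whose body holds the imprinting centre of the domain of Cdkn1c, had 36.9 CPM in MPC and 20.1 CPM in myoblast. Nap1l4 had 112 CPM in MPC and 123 CPM in myoblast. Cars had 51.0 CPM in MPC and 73.0 CPM in myoblast, and Tssc4 had 24.6 CPM in MPC and 23.1 CPM in myoblast. Cd81, a tetraspanin gene, had 175 CPM in MPC and 264 CPM in myoblast, and Osbpl5 had 11.8 CPM in MPC and 29.2 CPM in myoblast. Igf2, the paternally expressed growth factor at the other end of the region, had 28.2 CPM in MPC and 6.28 CPM in myoblast. It was the 1 higher gene, and with H19 it belongs to a domain separate from that of Cdkn1c. Phlda2 and Slc22a18, the maternally expressed neighbours next to Cdkn1c, were too low to be measured and are named after their values were seen, with 0.137 and 0.0872 CPM in MPC and 0.214 and 0.214 CPM in myoblast.

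Imprinted genes elsewhere, taken from a list of which 14 were measured, were more often higher in MPC than in myoblast in Pax7+ Myog- cells. Of these, 8 were higher past the rule and 1 lower, where 15.2% of all genes passed, with a median of 1.07 beside 0.06 over all genes. Dlk1, a Notch family ligand of fetal muscle, had 155 CPM in MPC and 0.214 CPM in myoblast, Grb10, an adaptor that restrains growth signalling, had 676 CPM in MPC and 88.2 CPM in myoblast, and Dcn, a matrix proteoglycan, had 61.4 CPM in MPC and 0.166 CPM in myoblast. Ndn was lower, with 1.79 CPM in MPC and 14.5 CPM in myoblast. Dcn is also 1 of the 8 fibroblast markers, so the lists overlap. Fibroblast markers were also higher: they summed to 695 CPM in the Pax7+ Myog- cells of MPC and 192 CPM in those of myoblast. Of the 8, 3 in MPC and 1 in myoblast reached 20 CPM, and their part was not tested.

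**Figure D4:**
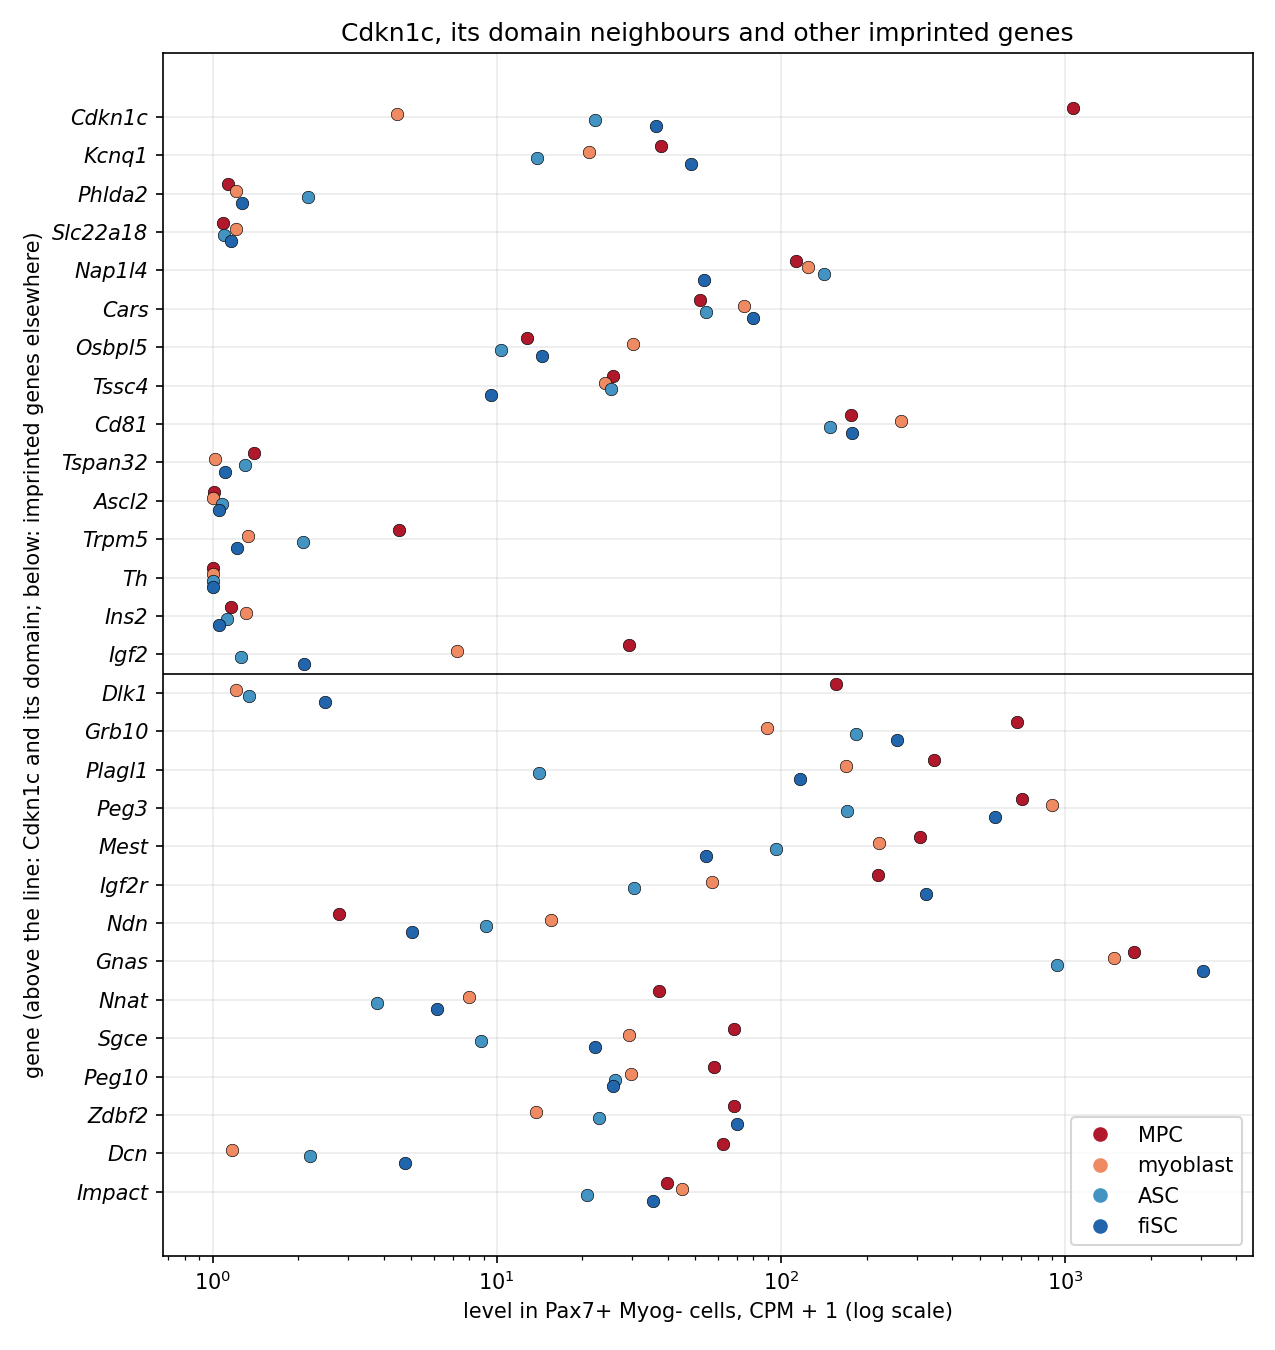
Levels in Pax7+ Myog- cells (CPM + 1, log axis) of Cdkn1c and 14 neighbours in its region, above the line, and of 14 imprinted genes elsewhere, below it, in MPC, myoblast, ASC and fiSC. Cdkn1c stands at 1062 CPM in MPC against 3.47 CPM in myoblast, while Nap1l4 and Cd81 lie within a narrow range in these 2 libraries. Igf2, in the same region but in a separate domain, stands at 28.2 CPM in MPC and 6.28 CPM in myoblast.

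The genes whose levels ran most like those of a member over 17 library and state sums were named by their Pearson correlation of log2 CPM plus 5 among 6715 genes, as a description, since the sums share 4 libraries. For Cdkn1c these were Stbd1 (0.925), Nrk (0.923), Bcam (0.919), Myzap (0.898) and Ralgps2 (0.897). For Cdkn1a they were Tmf1 (0.877), Pbxip1 (0.875), Bicd2 (0.873), Dnajc5 (0.867) and Dlgap4 (0.863), and for Cdkn1b Pag1 (0.911), Stat5b (0.876), Arhgef3 (0.874), Kdm3a (0.867) and Rev3l (0.867). Between the members the correlation was -0.50 for Cdkn1a with Cdkn1b, 0.01 for Cdkn1a with Cdkn1c and 0.55 for Cdkn1b with Cdkn1c, so no 2 members ran closely together over these sums.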

How the data were processed

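The deposited files hold UMI counts per gene and cell barcode for 4 libraries, with no normalization by the authors. The submitters' processing notes name STAR 2.7.10b and the genome build GRCm39. UMI collapsing, cell calling and the annotation are not given in the sources used here. Cells were kept with at least 1000 UMIs, 500 genes and at most 10% mitochondrial UMIs, and doublets scored by Scrublet (scanpy 1.11.5) were removed (799, 47, 297 and 59 of MPC, myoblast, ASC and fiSC): at its own threshold in ASC, and elsewhere, where that marked under 0.5% of cells, at the share expected from 0.8% per 1000 cells. Features that carry the same symbol (22 symbols) were added up. UMIs were summed per state and scaled to CPM. Sums have exact Poisson, ratios exact conditional binomial and shares exact binomial (Clopper-Pearson) intervals at 95%. The floor of 3 counts is 0.0221, 0.0544, 0.0168 and 0.150 CPM in MPC, myoblast, ASC and fiSC. TMM factors came from edgeR 4.0.16. The size rule was checked on simulated data. Named genes were the members, up to 3 genes a direction per list with the greatest log2 ratio past the size rule, all measured neighbours in the region of Cdkn1c and the 5 most correlated genes. Members and lists were chosen with earlier results of these data known.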

Additional observations from a re-analysis of the deposited data

Results flagged for a closer look

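Between libraries, 3 contrasts of cycling with non-cycling Pax7+ Myog- cells had opposite signs, each with a counting interval that left out a ratio of 1. The differences themselves were not tested, since each library is 1 sample. For Cdkn1c the log2 ratio was 0.08 in MPC and -3.89 in ASC, a difference of 3.97; the ASC value was -1.92 in cells of 5000 to 20000 UMIs and -1.32 with states from thinned cells, and MPC gave 0.18 and 0.042 there. For Cdkn1c it was 0.08 in MPC and -0.25 in myoblast, a difference of 0.33. The myoblast levels, read as background, were 2.96 CPM in cycling and 4.48 CPM in non-cycling cells. In myoblast cells of 5000 to 20000 UMIs they were 5.72 CPM in cycling and 3.73 CPM in non-cycling cells, and the sign turned (log2 ratio 0.30). For Cdkn1b it was -0.15 in MPC and 0.63 in myoblast, a difference of -0.78, and in cells of 5000 to 20000 UMIs it was -0.13 in MPC and 0.40 in myoblast.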

How the results depend on the processing

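Over 12 ratios of the members, 123 alternatives kept every call of the size rule and 119 kept the sign. No paired analysis was possible because each group has 1 library. Values outside the counting interval follow, and the cause was not tested. Cdkn1a in MPC over myoblast Pax7+ Myog- cells, -1.10, was -1.26 with the strict filter, -1.06 with no filter, -1.04 as a mean of CPM per cell and -1.20 with TMM factors. Cdkn1a in ASC over fiSC, -1.30, was -1.21 with states from thinned cells, -1.20 with macrophage-marker cells kept, -1.25 as a mean per cell and -1.23 with TMM. Cdkn1c in ASC over fiSC, -0.63, was 0.20 with thinned states and 0.22 as a mean per cell. Cdkn1b in MPC over myoblast, 1.61, was 1.73 as a mean per cell and 1.81 with a pseudocount of 1 CPM, where Cdkn1c gave 7.89 in place of 6.98. In Myog+ over Pax7+ Myog- MPC, Cdkn1a, 2.02, was 1.85 with doublets kept, 1.30 strict, 1.91 unfiltered, 2.11 thinned, 2.16 with higher cuts, 1.97 as a mean per cell and 2.12 with TMM; Cdkn1c, 2.09, was 1.94, 2.13, 1.87, 2.02, 2.17 and 2.20 under these in turn, higher cuts left out, and Cdkn1b, -0.36, was -0.26 with TMM. In cycling over non-cycling MPC, Cdkn1a, -0.057, was 0.0050 with higher cuts and 0.055 in cells of 5000 to 20000 UMIs, Cdkn1b, -0.15, was -0.012 thinned, and Cdkn1c, 0.08, was 0.055 with doublets kept, 0.042 thinned, 0.019 with higher cuts, 0.12 as a mean per cell, 0.037 with TMM and 0.18 in that depth range. The depth range and leaving out shared barcodes were chosen after seeing the data. Over all 72 ratios and 714 alternatives, 697 kept the call and 698 the sign.

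Counts of genes past the size rule moved by over 1.5 times in 4 comparisons. For Myog+ over Pax7+ Myog- MPC 1008 genes became 654 with doublets kept and 625 with the strict filter. For cycling over non-cycling myoblasts 375 became 231 with thinned states. For cycling over non-cycling ASC 1121 became 11 with thinned states, 633 with higher cuts and 2444 with macrophage-marker cells kept. For Myog+ over Pax7+ Myog- ASC 36 became 69, 75, 61 and 58 with thinned states, macrophage-marker cells kept, a mean per cell and a pseudocount of 1 CPM. Cdkn1a in cycling over non-cycling ASC, -0.37, was -1.24 with macrophage-marker cells kept. Depth limits Cdkn1c in myoblast progenitors, with 146 UMIs in 1774 cells, and in the 155 non-cycling ASC. With 1 library per group no spread between animals or cultures could be measured.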
